A study of Mus musculus with 12 samples.

Results

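The 50 genes described here are the nuclear-encoded genes of mitochondrial respiratory complexes II to V and of cytochrome c, chosen by symbol from the 55335 genes of the count table: Sdha to Sdhd for complex II (4 genes), Cyc1 and the symbols starting Uqcr for complex III (9 genes), Cycs for cytochrome c, the symbols starting Cox4 to Cox8 for complex IV (19 genes), and the symbols starting Atp5 for complex V (17 genes). Rows whose symbol ends in -ps with or without a number (10) and the empty duplicate row of Atp5o (1) were left out. Cox6c2, which GENCODE M21 lists as a processed pseudogene, was kept by its symbol. The values came from bulk RNA-seq of 12 libraries, with 3 in each of 4 groups. Livers came from males, either Tshr MKO or their Tshr f/f littermates, that entered at 6 weeks of age, received a high-fat diet during 9 weeks, fasted for 8 hours and were given 1.5 U/kg insulin 5 min before collection. Bone-marrow-derived macrophages (BMDMs) came from males of both genotypes, by the labels at 6 weeks of age (the general culture method of the study allows older mice), were grown for 7 days with 10 ng/mL M-CSF and then held for 24 hours in 1 ng/mL TSH, so that every BMDM library was TSH-treated and every liver library was high-fat-fed and insulin-injected. In Tshr MKO mice both alleles of the TSH receptor gene are floxed and Cre is driven by the Lyz2 promoter, which is active in myeloid cells. The Tshr f/f controls carry the floxed alleles without Cre. Hepatocytes are not a target of this Cre, and a liver library is whole tissue. What the study asked of these libraries was how the TSH receptor of macrophages bears on the response of macrophages to TSH and on the insulin-resistant liver.

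The respiratory chain moves electrons from nutrients to oxygen and stores the energy as a proton gradient across the inner mitochondrial membrane. Complex II (succinate dehydrogenase) feeds electrons from succinate into ubiquinone, complex III passes them to the small carrier cytochrome c, complex IV (cytochrome c oxidase) hands them to oxygen, and complex V (ATP synthase) uses the gradient to make ATP. All complex II subunits are encoded in the nucleus, whereas complexes III, IV and V also contain subunits encoded by mitochondrial DNA. Hepatocytes are rich in mitochondria, and macrophages shift between respiration and glycolysis with their activation state.

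RefSeq promoter windows (GRCm38.p6, 300 bases around the annotated start) were found for 37 of the 50 genes. The sequences below are shown because they belong to genes on which the comparisons turn: for each complex the gene with a window and the highest log2 fold change in liver, and Cox7a2, which differed most clearly between liver and BMDM. Capitals mark matches to GCATGCG (a core of the site bound by the transcription factor NRF1) and CCGGAAG (a core of the ETS site bound by GABP). For Uqcr11, Cycs, Cox7c and Cox7a2 the stretch upstream of both the RefSeq and the GENCODE M21 start is given, and for Sdhb and Atp5k only the 25 bases around the GCATGCG match, which lie past the GENCODE start in Sdhb and span it in Atp5k.
Sdhb, chr4:140961208-140961232, plus strand: gcccagtggGCATGCGccctacggg
Uqcr11, chr10:80406831-80407071, minus strand: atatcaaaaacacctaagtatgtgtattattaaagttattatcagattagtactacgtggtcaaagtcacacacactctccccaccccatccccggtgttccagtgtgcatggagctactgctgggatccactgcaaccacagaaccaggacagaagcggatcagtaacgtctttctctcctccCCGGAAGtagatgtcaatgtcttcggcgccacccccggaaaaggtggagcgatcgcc
Cycs, chr6:50566570-50566819, minus strand: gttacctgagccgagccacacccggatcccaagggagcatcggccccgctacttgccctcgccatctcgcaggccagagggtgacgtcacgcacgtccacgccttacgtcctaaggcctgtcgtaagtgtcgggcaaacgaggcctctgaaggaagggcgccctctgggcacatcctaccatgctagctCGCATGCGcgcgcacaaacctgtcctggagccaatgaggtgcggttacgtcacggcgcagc
Cox7c, chr13:86046905-86047045, minus strand: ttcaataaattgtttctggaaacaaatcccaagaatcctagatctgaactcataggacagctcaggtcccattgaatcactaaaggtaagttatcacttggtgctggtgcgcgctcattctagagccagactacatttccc
Cox7a2, chr9:79759879-79760103, minus strand: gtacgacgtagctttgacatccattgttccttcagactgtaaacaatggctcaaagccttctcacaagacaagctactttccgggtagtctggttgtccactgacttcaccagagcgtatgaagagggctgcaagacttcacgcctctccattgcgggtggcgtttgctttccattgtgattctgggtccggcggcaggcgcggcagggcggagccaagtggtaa
Atp5k, chr5:108434433-108434457, minus strand: tcactgcggCGCATGCGcctttctg
The capitals in Cycs and Atp5k read the same on either strand, so GCATGCG matched on both strands there. In Uqcr11 the capitals are the ETS core, and its GCATGCG match lies outside the printed stretch. The windows of Sdhb and Atp5k also hold CCGGAAG, outside the printed bases. Neither core was found in the windows of Cox7c and Cox7a2, which says only that these letters were not there.

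Over both strands of the 300-base windows, GCATGCG was in 9 of the 37 member windows (24.3%), against 4.01% of 27025 RefSeq windows and 6.79% of the windows of 10737 other genes tested in liver. CCGGAAG was in 13 member windows (35.1%), against 9.93% of all windows and 19.0% of those of the other genes tested in liver. AAGATGG, the core bound by YY1, was in 4 (10.8%, against 7.28% and 8.20%). AAGGTCA, the site of the estrogen-related receptors, was in 5 (13.5%, against 5.38% and 4.31%), of which 4 belonged to complex V and 1 to complex II. A match is a description of the letters in the window.

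The libraries held 28962878 to 40954211 counts. The 50 genes together took 0.531% to 0.575% of the counts of the Tshr f/f livers, 0.661% to 0.732% of the livers labelled Tshr MKO, 0.290% to 0.447% of the Tshr f/f BMDMs and 0.395% to 0.407% of the Tshr MKO BMDMs. A count of 3, the floor up to which no level is read here, corresponded to 0.0733 to 0.104 CPM (counts scaled to a library of 1e6 counts) by library totals. With the normalized library sizes used for the other CPM values, it was 0.115 CPM in BMDM Tshr f/f replicate 3. This floor covers counting error only. The genotype could not be checked from Tshr itself, which had 0 counts in every liver and at most 5 in a BMDM library. A supplementary receptor list of the study places the Il1r1 and Tnfrsf1a counts of the livers labelled Tshr MKO under wild type and the reverse. Directions in liver therefore follow the library labels, and would turn if the labels were exchanged. Other measures of the study were not used here to check the labels. Hepatocyte markers (6 genes) summed to 75993 to 100728 CPM in the livers and 5 of the 6 had no count in any BMDM library. The 8 Kupffer cell and macrophage markers summed to 284 to 721 CPM in the livers, and 7 macrophage identity genes to 14777 to 29334 CPM in the BMDMs. BMDM Tshr f/f replicate 3 stood apart, with a normalization factor of 0.738 against 0.993 to 1.11 in the other BMDM libraries and the lowest share of counts in these genes.

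The first comparison asked how the 50 genes differed by genotype in liver. Nearly all of the expressed genes were higher in the livers labelled Tshr MKO, by amounts close to each other and at most 1.45-fold. Of the 44 genes that passed the filter on low counts, 42 had a log2 fold change above 0 (49.1% of all 15062 genes tested), 32 of them at an unadjusted p under 0.05 (5.27% of all genes) and none was lower at that level (5.18%). The other 2 were below 0 (50.9%). For 37 of the 44, all 3 livers labelled Tshr MKO lay above all 3 Tshr f/f livers (9.6% of all genes), and for none was it the reverse (7.74%). The median log2 fold change of the 44 was 0.34, against -0.0064 for all genes. With edgeR's quasi-likelihood test and Benjamini-Hochberg adjustment over all genes, no gene of the table passed an adjusted p of 0.05, and the lowest among these 44 was 0.315. DESeq2 called 220 genes in liver, among them Cox6c (adjusted p = 0.0165) and Sdhb (adjusted p = 0.0227). The 42 genes that were higher each had at least 638 counts in every liver, well above the filter on low counts. Nothing in the labels says from how many litters or runs the samples came, so p-values measure the spread between these samples. In whole tissue, fewer cells of a type and less RNA per cell cannot be told apart.

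**Figure D1:**
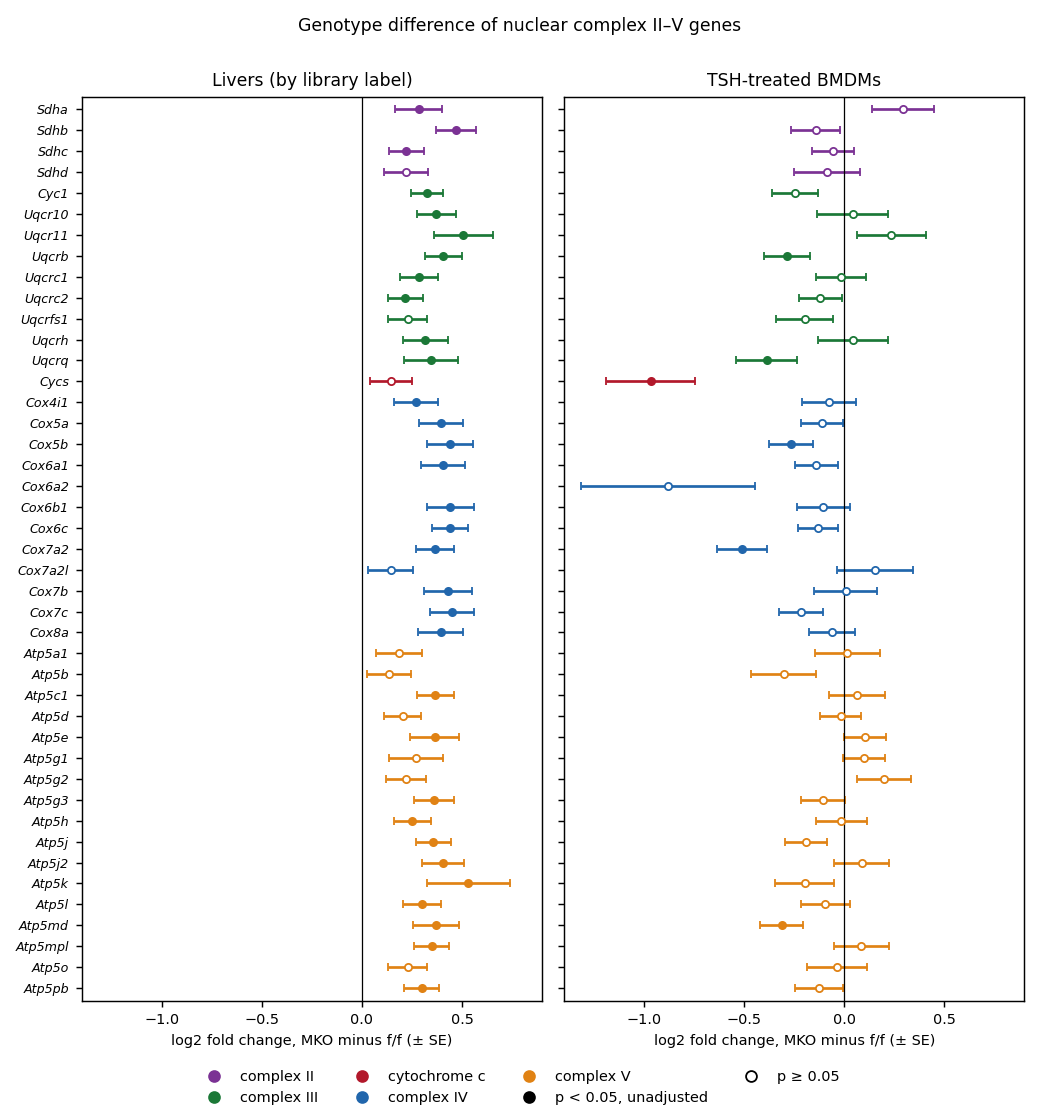
Each point is the log2 fold change (horizontal axis) of a gene, MKO minus f/f, with its standard error, in livers by library label (left) and in TSH-treated BMDMs (right), for genes with a mean of at least 5 CPM; colors give the complex and filled points an unadjusted p under 0.05. All 42 liver points lie to the right of 0, between 0.13 and 0.53, whereas the BMDM points lie on both sides, with Cycs at -0.97 the farthest left.

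In complex II, Sdhb, the iron-sulfur subunit, had the largest difference. Its level was 92.5, 100.5 and 89.5 CPM in the Tshr f/f livers and 140.0, 119.7 and 132 CPM in the livers labelled Tshr MKO, so that the log2 fold change was 0.47 ± 0.10 (SE, 3 livers per group; adjusted p = 0.315). The groups did not overlap. Sdha, the flavoprotein that oxidizes succinate, was at 372, 388 and 339 CPM against 484, 399 and 454 CPM, also without overlap (log2 fold change 0.28 ± 0.12, adjusted p = 0.473). The membrane anchors Sdhc and Sdhd had log2 fold changes of 0.22 ± 0.088 (adjusted p = 0.445) and 0.22 ± 0.11 (adjusted p = 0.526). The median over the 4 genes was 0.25, with 3 of 4 at an unadjusted p under 0.05.

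In complex III all 9 genes were above 0, 8 of them with an unadjusted p under 0.05, with a median log2 fold change of 0.33. Cyc1, the heme protein cytochrome c1, was at 103, 107.1 and 100.4 CPM in the Tshr f/f livers and 132, 127 and 130.4 CPM in the livers labelled Tshr MKO (log2 fold change 0.33 ± 0.081, adjusted p = 0.334). The replicates of each group lay within a few CPM of each other, and the groups were separate. The largest difference was in Uqcr11, a small accessory subunit, with 67.8, 55.6 and 46.2 CPM against 80.5, 74.7 and 85.8 CPM (log2 fold change 0.51 ± 0.15, adjusted p = 0.347), where Tshr f/f replicate 3 was the lowest library. Leaving out each library in turn gave 0.37 to 0.65. Uqcrb, another small subunit, was at 59.4, 58.1 and 53.3 CPM against 77.6, 69.4 and 79.4 CPM (log2 fold change 0.41 ± 0.093, adjusted p = 0.324). The core proteins Uqcrc1 and Uqcrc2, which carry no redox center, had smaller log2 fold changes of 0.28 ± 0.10 and 0.22 ± 0.088. Uqcrfs1, the Rieske iron-sulfur protein, was the gene that missed an unadjusted p of 0.05 (0.23 ± 0.10, adjusted p = 0.485). The small subunits Uqcr10 and Uqcrh, the latter a hinge protein next to cytochrome c1, gave 0.37 ± 0.10 and 0.32 ± 0.11. Uqcrq (0.35 ± 0.13) was the only member of the complex whose groups overlapped, because Tshr f/f replicate 1 (169.8, 129 and 131 CPM in the 3 Tshr f/f livers) was above the lowest library labelled Tshr MKO (187, 168 and 191 CPM).

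Cycs, the somatic cytochrome c that shuttles electrons from complex III to complex IV and triggers caspases when it leaves mitochondria, did not separate by genotype in liver. Its level was 83.0, 67.0 and 75.6 CPM in the Tshr f/f livers and 80.1, 82.3 and 87.1 CPM in the livers labelled Tshr MKO, with overlap (log2 fold change 0.15 ± 0.10, adjusted p = 0.676).

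In complex IV, 13 of the 19 genes passed the filter, and 10 of them were higher at an unadjusted p under 0.05. The median log2 fold change was 0.40, the highest of the complexes, but after removal of a trend with gene length it was 0.26, below the 0.28 of complex V. Cox6c had the lowest p of all 44 genes (77.9, 71.6 and 68.7 CPM in the Tshr f/f livers and 103, 93.6 and 99.2 CPM in the livers labelled Tshr MKO; log2 fold change 0.44 ± 0.090, adjusted p = 0.315). Cox7c, a small membrane subunit, was at 70.4, 57.8 and 59.1 CPM against 84.6, 79.7 and 91.7 CPM (log2 fold change 0.45 ± 0.11, adjusted p = 0.334). In both genes every library labelled Tshr MKO was above every Tshr f/f library. Cox4i1, the subunit at which ATP regulates the enzyme, was at 285, 239 and 261 CPM against 325, 297 and 323 CPM (log2 fold change 0.27 ± 0.11, adjusted p = 0.46). The matrix-side subunits Cox5a and Cox5b had log2 fold changes of 0.40 ± 0.11 (adjusted p = 0.345) and 0.44 ± 0.12 (adjusted p = 0.334), and Cox5b was at 93.0, 76.6 and 77.1 CPM in the Tshr f/f livers and 116, 101 and 117 CPM in the livers labelled Tshr MKO. Cox7a2, a subunit at the dimer face of the enzyme, was at 60.6, 51.7 and 55.8 CPM against 75.3, 67.4 and 73.6 CPM (log2 fold change 0.36 ± 0.10, adjusted p = 0.334). The remaining well-expressed subunits, Cox6a1, Cox6b1, Cox7b and Cox8a, had log2 fold changes of 0.41 ± 0.11, 0.44 ± 0.12, 0.43 ± 0.12 and 0.39 ± 0.11, each with separate groups. Cox7a2l, which is a relative of the Cox7a subunits that joins complexes III and IV into supercomplexes, had the smallest difference among the well-expressed genes of the complex (0.14 ± 0.11, adjusted p = 0.704), and its groups overlapped. The 2 genes below 0, Cox6b2 (-0.57 ± 0.68) and Cox7a1 (-0.16 ± 0.52), had at most 26 and 29 counts per liver and overlapped between groups. Without Tshr f/f replicate 3 their values were 0.11 and 0.20.

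In complex V all 17 genes were above 0, 11 of them with an unadjusted p under 0.05, with a median log2 fold change of 0.30. The 5 small membrane subunits were all at that level, with log2 fold changes from 0.30 to 0.53. Atp5k (subunit e), which takes part in pairing ATP synthases, was at 36.2, 27.6 and 21.2 CPM in the Tshr f/f livers and 47.9, 37.7 and 37.2 CPM in the livers labelled Tshr MKO (log2 fold change 0.53 ± 0.21, adjusted p = 0.441), and the spread among the Tshr f/f livers was wide, from replicate 3 at the bottom to replicate 1. Atp5j2 (subunit f) was at 82.0, 68.2 and 72.6 CPM against 105, 90.6 and 99.4 CPM (log2 fold change 0.41 ± 0.11, adjusted p = 0.334). Atp5md was at 34.4, 29.7 and 28.5 CPM against 43.0, 36.1 and 40.6 CPM (0.37 ± 0.11), and Atp5l (subunit g) and Atp5mpl gave 0.30 ± 0.095 and 0.35 ± 0.088. The F1 head, where ATP is formed, gave the smallest values. Atp5a1 (alpha) was at 811, 775 and 764 CPM against 964, 815 and 893 CPM (0.19 ± 0.11, adjusted p = 0.609), and Atp5b (beta) at 869, 809 and 838 CPM against 988, 868 and 904 CPM (0.13 ± 0.11, adjusted p = 0.721). These have the highest CPM per kilobase of exon of the 50 genes in liver, and for Atp5b the groups overlapped. Atp5c1, the gamma subunit that turns inside the head, had a log2 fold change of 0.37 ± 0.092 (adjusted p = 0.334). Over the peripheral stalk (Atp5pb, Atp5h, Atp5j and Atp5o) the values ran from 0.23 to 0.36, with 3 of 4 at an unadjusted p under 0.05. Atp5j (0.36 ± 0.086) had the largest of these, and Atp5o, which confers sensitivity to oligomycin, gave 0.23 ± 0.10, Atp5h 0.25 ± 0.090 and Atp5pb 0.30 ± 0.087. In the central stalk Atp5d (delta) and Atp5e (epsilon) gave 0.20 ± 0.092 and 0.36 ± 0.12, and for the c ring Atp5g1, Atp5g2 and Atp5g3 gave 0.27 ± 0.13, 0.22 ± 0.10 and 0.36 ± 0.10.

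The median deviation of the 44 genes from the tissue mean, on the log2(CPM + 1) scale, was -0.050, -0.22 and -0.20 in Tshr f/f replicates 1 to 3 and 0.23, 0.082 and 0.17 in the livers labelled Tshr MKO. Of the 44 genes, 30 were highest in the replicate 1 labelled Tshr MKO and 12 in replicate 3, whereas 23 were lowest in Tshr f/f replicate 3 and 19 in replicate 2. Leaving out each liver in turn left 22 to 31 genes at an unadjusted p under 0.05 and a median log2 fold change of 0.29 to 0.38. The sample IDs of the livers start with A or B, which the labels do not call a batch. Letter A held Tshr f/f replicates 1 and 2 and the replicate 3 labelled Tshr MKO. Letter B held Tshr f/f replicate 3 and the replicates 1 and 2 labelled Tshr MKO. The median difference between genotypes was 0.31 within letter A and 0.36 within letter B. Within each letter a group had a single library, so these values cannot show whether the letter matters.

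**Figure D2:**
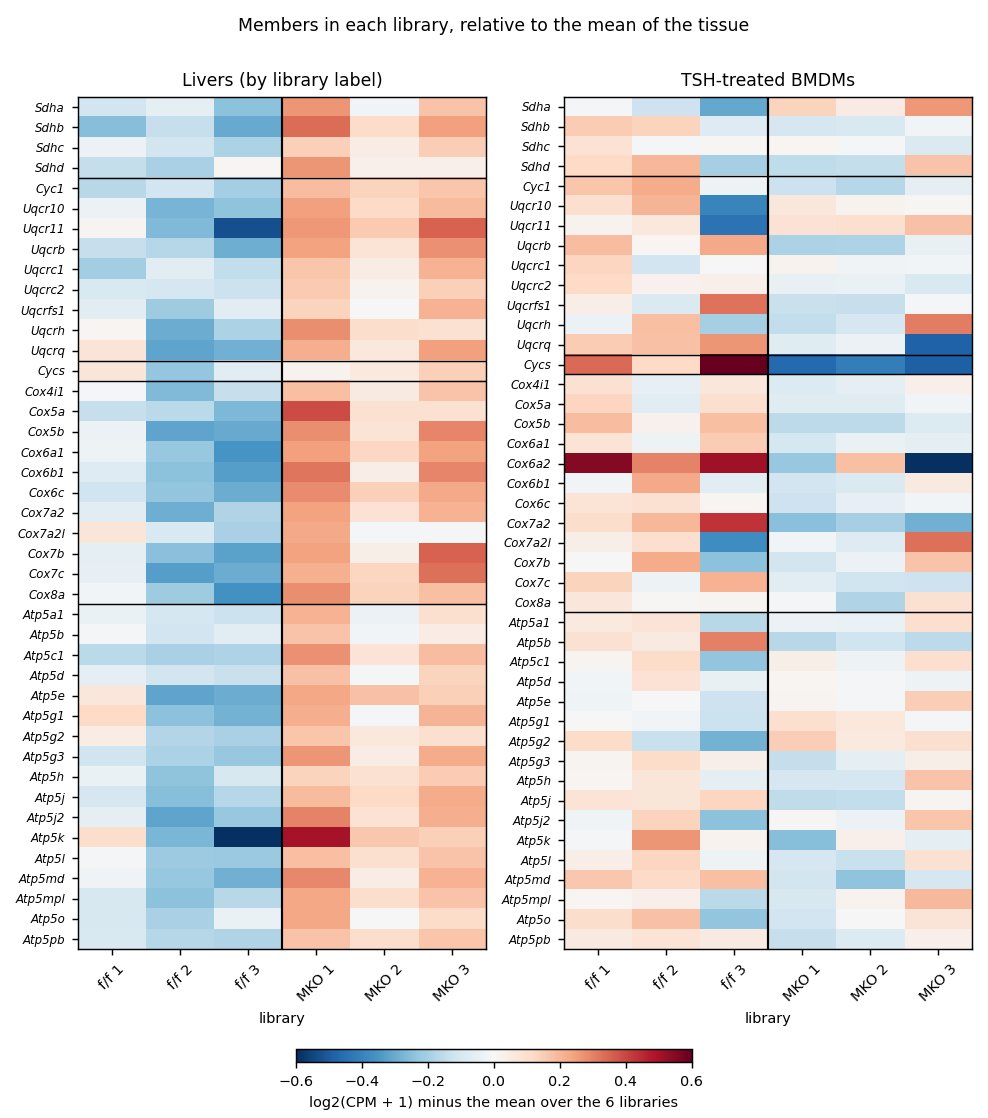
Color gives log2(CPM + 1) of a gene (row) in a library (column) minus its mean over the 6 libraries of the tissue, for genes with a mean of at least 5 CPM, with livers on the left by library label and TSH-treated BMDMs on the right; horizontal lines separate the complexes. In liver the columns labelled MKO are above the mean in nearly every row, with replicate 2 nearest to it, and in BMDMs most rows are closer to the mean, with the widest values in Cox6a2 and Cycs.

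Complex I, which feeds electrons from NADH, was taken as the genes whose symbols start with Nduf, without Ndufaf and -ps. Not every such gene encodes a subunit of complex I. Of 39 tested Nduf genes, 39 had a log2 fold change above 0 and 28 an unadjusted p under 0.05 (median 0.31). The 6 mitochondrially encoded subunits of complexes III to V were all above 0, 5 at an unadjusted p under 0.05, with a median log2 fold change of 0.43. The largest value among them was that of mt-Co1, the catalytic subunit of complex IV, at 0.51 ± 0.14. Mitochondrial transcripts took 5.55% to 6.80% of the counts of the Tshr f/f livers and 7.72% to 8.15% of the livers labelled Tshr MKO. Among assembly factors, 7 of 23 for complex IV, 3 of 6 for complex III, 1 of 4 for complex II and 1 of 4 for complex V were higher at an unadjusted p under 0.05 and none lower. Over all genes tested in liver, 5.27% were higher and 5.18% lower at that level. Sco2, which delivers copper to complex IV, was at 8.32, 6.23 and 9.72 CPM in the Tshr f/f livers and 13.2, 15.1 and 13.3 CPM in the livers labelled Tshr MKO (log2 fold change 0.78 ± 0.18, adjusted p = 0.334). Fmc1, an assembly factor of complex V, had a log2 fold change of 0.73 ± 0.19 (adjusted p = 0.334).

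Of the 12 listed regulators of mitochondrial gene expression, 4 had a log2 fold change above 0 in liver, none at an unadjusted p under 0.05, and 2 were lower at that level (5.18% of all genes). Ppargc1b, a coactivator of respiratory genes, was at 4.06, 5.87 and 5.34 CPM in the Tshr f/f livers and 3.8, 3.21 and 2.12 CPM in the livers labelled Tshr MKO (log2 fold change -0.74 ± 0.28, adjusted p = 0.434). Gabpa, the DNA-binding part of GABP, had a log2 fold change of -0.20 ± 0.086 (adjusted p = 0.478). Ppargc1a, the related coactivator that is induced by fasting, was at 12.7, 14.0 and 17.7 CPM against 14.5, 6.98 and 8.46 CPM (adjusted p = 0.53). Nrf1 (0.0079 ± 0.16) and Tfam (0.035 ± 0.091), which drive nuclear respiratory genes and mitochondrial transcription, gave adjusted p = 0.991 and adjusted p = 0.934. Esrra, an estrogen-related receptor, gave 0.26 ± 0.11 (adjusted p = 0.485).

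Gene length and marker levels were also compared between the genotype labels in liver. The short genes of the whole table were also shifted: the 5016 genes with exons of up to 2835 bases had a median log2 fold change of 0.082 and 60.4% of them were above 0, against -0.058 and 40.1% for the 5018 longest. The 50 genes are mostly short, with a median exon length of 1793.5 bases among the tested ones against 3975 for all genes, and 32 of the 44 lay in the shortest group, with a median of 0.36. After removal of the length trend of each library, the median of the 44 genes was 0.26, 27 had an unadjusted p under 0.05, and the median of complex IV was 0.26. Across the 44 genes, which share their libraries, the Spearman correlation of length and log2 fold change was -0.29. Of the marker lists, neutrophil genes summed to 6.90 to 66.4 CPM in the Tshr f/f livers and 8.07 to 13.7 CPM in the livers labelled Tshr MKO, with 0 of 5 tested genes higher and 2 lower at an unadjusted p under 0.05. The macrophage sum ranged from 294 to 721 CPM and from 284 to 645 CPM, with 2 of 8 genes above 0 and none at an unadjusted p under 0.05, and the hepatocyte sum from 75993 to 100728 CPM and from 93320 to 96398 CPM, with 4 of 6 above 0 and 1 at an unadjusted p under 0.05. Endothelial (4 of 5), stellate cell and fibroblast (3 of 6), bile duct (0 of 4), T and B cell (3 of 4) and dendritic cell markers (0 of 2) were above 0 in these counts of tested genes, none at an unadjusted p under 0.05. Tshr f/f replicate 1 stood apart: its endothelial sum was 38.4 CPM against 91.8 to 142 CPM in the other livers, and its stellate cell and fibroblast sum 32.1 CPM against 113 to 295 CPM. It had the lowest normalization factor of the livers (0.891) and was the Tshr f/f liver nearest to those labelled Tshr MKO for the 50 genes. Without it, 31 genes had an unadjusted p under 0.05, with a median log2 fold change of 0.38. The part of length and of cell composition in the result was not tested.

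**Figure D3:**
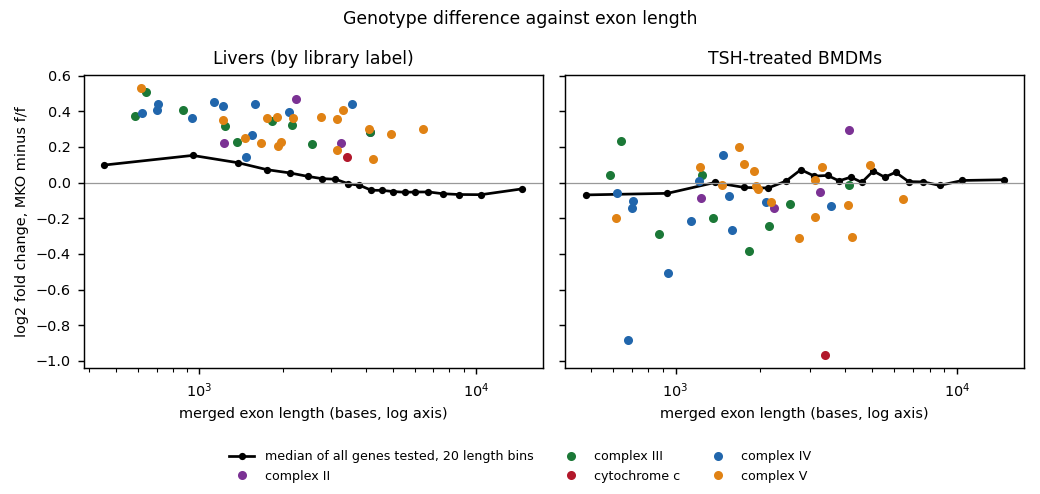
The log2 fold change between genotypes (vertical axis) is plotted against merged exon length in bases (log axis) for the genes with a mean of at least 5 CPM, in livers by library label (left) and TSH-treated BMDMs (right); the black line joins the medians of all tested genes in 20 length bins. Every liver point lies above the line, and the line itself falls from short to long genes.

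The second comparison asked the same in TSH-treated BMDMs, where the genes lay on both sides of 0 and closer to it. Of 43 tested genes, 30 were below 0 (49.2% of all 15372 genes tested) and 13 above 0. At an unadjusted p under 0.05, 6 were lower (10.2% of all genes) and none was higher (7.73%). The groups were separate with Tshr MKO lower for 15 genes (14% of all genes) and higher for 2, Sdha and Uqcr11 (14.8%). The median log2 fold change was -0.094, against 0.0083 for all genes. With edgeR 0 genes of the table had an adjusted p under 0.05. DESeq2 called 1100 genes, of which Cycs was the only member. With library totals in place of TMM factors the median of all genes was 0.17, the median of the 43 became 0.066 and 31 were above 0, so the direction of the small differences in BMDMs depended on the scaling. Relative to all genes, the median of the 43 was lower under both scalings. Without BMDM Tshr f/f replicate 3, whose factor differed most, 7 genes were above 0 with TMM factors.

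Cycs had the largest difference. Its level was 103, 88.1 and 154 CPM in the Tshr f/f BMDMs and 58.4, 60.5 and 57.4 CPM in the Tshr MKO BMDMs (log2 fold change -0.97 ± 0.22, adjusted p = 0.218). The Tshr MKO cultures lay close to each other and all below the Tshr f/f cultures, of which replicate 3 was far above the other 2. Leaving out each library gave values from -1.13 to -0.70. The adjusted p was 0.0107 with DESeq2 and 0.0441 with all 12 libraries in the edgeR fit.

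Cox7a2, the broadly expressed form of subunit 7a, was at 48.4, 51.7 and 61.0 CPM in the Tshr f/f BMDMs and 37.5, 39.0 and 36.6 CPM in the Tshr MKO BMDMs (log2 fold change -0.51 ± 0.12, adjusted p = 0.218). The groups did not overlap, and the value ran from -0.55 to -0.41 with each library left out. Cox5b was at 84.4, 75.4 and 83.9 CPM against 66.4, 66.3 and 69.8 CPM (log2 fold change -0.27 ± 0.11, adjusted p = 0.275). In complex III, Uqcrq was at 71.8, 73.1 and 77.6 CPM against 61.4, 63.1 and 45.8 CPM (log2 fold change -0.39 ± 0.15, adjusted p = 0.265), where Tshr MKO replicate 3 was the lowest, and Uqcrb was at 57.4, 50.8 and 59.2 CPM against 44.2, 44.3 and 48.8 CPM (log2 fold change -0.29 ± 0.11, adjusted p = 0.268). Both are small subunits that bind next to cytochrome b. In complex V, Atp5md, a small subunit that helps to hold ATP synthase dimers, was at 29.4, 28.5 and 29.8 CPM against 24.3, 22.0 and 24.4 CPM (log2 fold change -0.31 ± 0.11, adjusted p = 0.242). Each of these genes was separate between the groups.

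**Figure D4:**
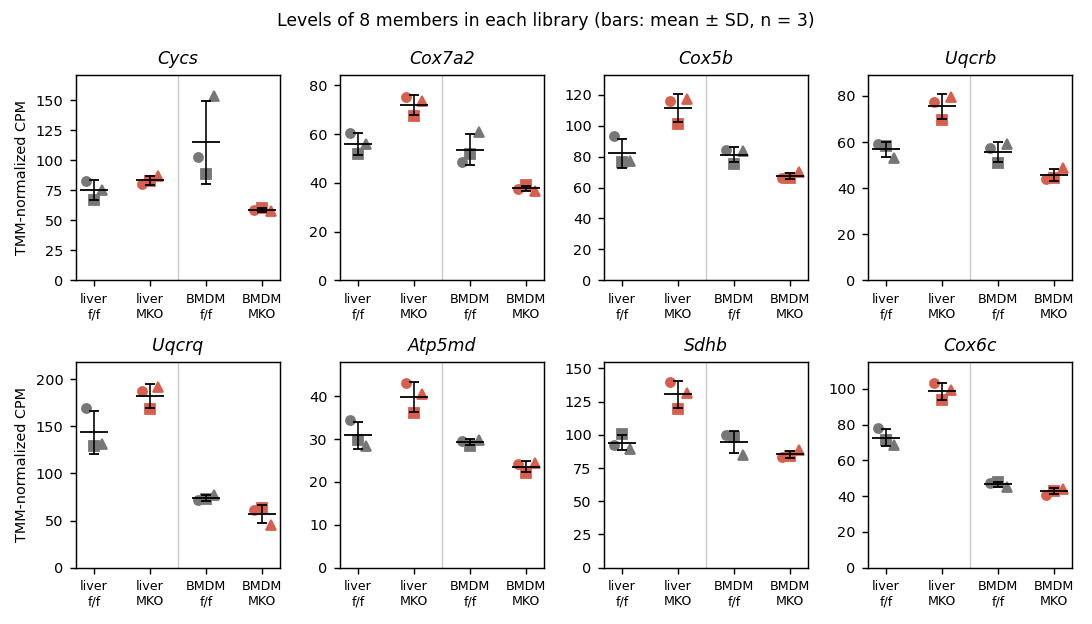
TMM-normalized CPM (vertical axis, scaled within each tissue) of 8 genes in each library, with gray for f/f and red for MKO, circles, squares and triangles for replicates 1 to 3, and bars for mean ± SD (n = 3). Sdhb is separate between groups in liver only and Cycs and Uqcrq in BMDMs only. Cox7a2, Cox5b, Uqcrb, Atp5md and Cox6c are separate in both tissues in opposite directions, and levels are not comparable between tissues.

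No other gene reached an unadjusted p under 0.05 in BMDMs. In complex II, Sdha was at 219, 201 and 177 CPM in the Tshr f/f BMDMs and 241, 227 and 263 CPM in the Tshr MKO BMDMs (log2 fold change 0.29 ± 0.15, adjusted p = 0.356), and Sdhb, Sdhc and Sdhd gave -0.14 ± 0.12, -0.055 ± 0.11 and -0.085 ± 0.16. In complex III, Cyc1 gave -0.25 ± 0.12 (adjusted p = 0.315) without overlap, Uqcrc1, Uqcrc2 and Uqcrfs1 gave -0.015 ± 0.12, -0.12 ± 0.11 and -0.20 ± 0.14, and the small subunits Uqcr10, Uqcr11 and Uqcrh gave 0.042 ± 0.18, 0.23 ± 0.17 and 0.045 ± 0.18. In complex IV, Cox4i1, Cox5a, Cox6a1 and Cox6b1 gave -0.075 ± 0.14, -0.11 ± 0.11, -0.14 ± 0.11 and -0.10 ± 0.13. Cox6c, Cox7c and Cox8a gave -0.13 ± 0.10, -0.22 ± 0.11 and -0.060 ± 0.12, and the 2 genes of the complex above 0 were Cox7a2l (0.15 ± 0.19) and Cox7b (0.0069 ± 0.16). In the ATP synthase head, Atp5b was at 586, 569 and 677 CPM against 489, 505 and 492 CPM, separate but with adjusted p = 0.365, while Atp5a1 gave 0.016 ± 0.16. The other 14 genes of complex V ran from -0.20 (Atp5k) to 0.20 (Atp5g2). The medians were -0.070 for complex II, -0.12 for complex III, -0.12 for complex IV and -0.018 for complex V.

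Of the other genes of the pathway in BMDMs, the Nduf genes were above 0 in 17 of 38 (median -0.021) with 1 higher and 2 lower at an unadjusted p under 0.05, and the 6 mitochondrially encoded subunits had a median of 0.014 with none at that level. Assembly factors of complexes II, III and V had none at that level, and those of complex IV 3 of 23, all lower. Over all genes tested in BMDMs, 7.73% were higher and 10.2% lower at that level. Higd1a, a hypoxia-inducible protein that binds complex IV, was at 14.9, 23.8 and 20.4 CPM in the Tshr f/f BMDMs and 7.86, 7.65 and 11.8 CPM in the Tshr MKO BMDMs (log2 fold change -1.11 ± 0.26, adjusted p = 0.218). Cox17, the copper chaperone of complex IV, was at 42.7, 35.0 and 67.2 CPM against 22.1, 26.0 and 20.6 CPM (log2 fold change -1.07 ± 0.26, adjusted p = 0.218). Coa5 gave -0.54 ± 0.20 (adjusted p = 0.257). None passed adjustment. Among 11 tested regulators, Tfb2m, a mitochondrial transcription factor, was higher (0.56 ± 0.19, adjusted p = 0.237) and Gabpb1, the activating part of GABP, lower (-0.80 ± 0.31, adjusted p = 0.265). In Gabpb1, as in Cycs and Cox17, Tshr f/f replicate 3 held the highest value (22.6, 18.1 and 41.2 CPM in the 3 Tshr f/f cultures). The macrophage identity genes summed to 14777 to 16288 CPM in the Tshr f/f BMDMs and 20032 to 29334 CPM in the Tshr MKO BMDMs, with 4 of 7 above 0 and 3 below, among these Adgre1 (-0.30 ± 0.20). Lyz2, which makes up much of that sum, had a log2 fold change of 0.95 ± 0.25. Lyz2 is also the gene whose promoter drives Cre in the Tshr MKO mice, and whether this bears on its level was not tested. Stellate cell and fibroblast markers, 1 of 4 tested above 0, summed to 637 to 1786 CPM in the Tshr f/f cultures, highest in replicate 2, and to 392 to 766 CPM in the Tshr MKO cultures. Dendritic cell markers summed to 10.1 to 17.5 CPM in the Tshr f/f and 6.87 to 8.21 CPM in the Tshr MKO cultures, without overlap, with 1 of 3 above 0 and 1, Ccr7, lower at an unadjusted p under 0.05 (6.03, 10.9 and 13.4 CPM against 2.87, 2.37 and 3.83 CPM, adjusted p = 0.218). Neutrophil markers summed to 16.3 to 364 CPM and 17.8 to 113 CPM, with 2 of 4 above 0. At an unadjusted p under 0.05 S100a8 was lower (log2 fold change -2.37 ± 0.81, adjusted p = 0.242) and Retnlg higher (0.0753, 0.0458 and 0.115 CPM, at or under the floor of 3 counts, against 0.992, 0.560 and 1.71 CPM, adjusted p = 0.218). Of the Kupffer cell and macrophage markers 5 of 7 were above 0, Lyz2 higher and Timd4 lower at that level (-2.70 ± 0.71, adjusted p = 0.218). Endothelial (0 of 2), bile duct (1 of 3) and T and B cell markers (4 of 5) were above 0 in these counts, none at that level. Their part in the results was not tested.

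The third comparison tested whether the genotype difference itself differed between the tissues, with all 12 libraries in a single fit. Of 45 genes tested, 41 had a larger log2 fold change in liver than in BMDMs (50.6% of all 17246 genes), 22 of them at an unadjusted p under 0.05 (7.42%). Of the 4 on the other side (49.4%), none was at that level (7.12%). The median difference was 0.39. The smallest adjusted p among the 45 was 0.121, and in all 17246 a single gene, outside the 50, was called (0.0058%). The 5 genes with the lowest p were Cox7a2 (log2 difference 0.88 ± 0.16, adjusted p = 0.121), Uqcrb (0.69 ± 0.15, adjusted p = 0.139), Atp5md (0.68 ± 0.15, adjusted p = 0.141), Cox5b (0.71 ± 0.16, adjusted p = 0.146) and Cycs (1.12 ± 0.26, adjusted p = 0.146). In 4 of these both tissues contributed, with a value above 0 in liver and below 0 in BMDMs by separate groups, whereas for Cycs most of the difference came from BMDMs. These directions follow the liver labels. With the 2 liver labels exchanged, 6 of the 45 genes would be above 0 and 39 below, with a median of -0.26. Sdha (-0.0077 ± 0.20) and Cox7a2l (-0.0093 ± 0.23) were the well-expressed genes with the smallest difference. Without BMDM Tshr f/f replicate 2, 5 genes passed an adjusted p of 0.05 (Cox5b, Uqcrb, Cycs, Cox7a2 and Cox7c), out of 341 genes called over the table. With library totals in place of TMM factors, 7 genes had an unadjusted p under 0.05 and the median difference was 0.25 against a median of -0.13 for all genes. Diet, insulin, fasting, culture and TSH all differed with the tissue, so what sets the difference cannot be told apart.

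Several subunits have tissue isoforms, and their levels are compared here as CPM per kilobase of exon. Cox6a2, the heart and skeletal muscle form of subunit 6a, made up 14.2% ± 0.708 (SD, n = 3) of the Cox6a1 and Cox6a2 level in Tshr f/f BMDMs and 8.86% ± 4.41 in Tshr MKO BMDMs. Its CPM was 12.2, 10.1 and 11.8 in the Tshr f/f BMDMs and 6.68, 9.20 and 2.63 in the Tshr MKO BMDMs, so that the groups were separate with replicate 3 of Tshr MKO the lowest, but the spread was wide (log2 fold change -0.88 ± 0.43, adjusted p = 0.329). In liver it had at most 4 counts per library, and no share is read there.

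Within subunit 7a, the relative Cox7a2l was above Cox7a2 in every BMDM library except Tshr f/f replicate 3 and below it in every liver. The order in liver rests on the exon lengths, since by CPM alone Cox7a2l was at 71.5, 63.8 and 59.2 CPM in the Tshr f/f livers, above Cox7a2 in each. Cox7a2 made up 56.9% ± 1.69 of the family in Tshr f/f livers and 60.8% ± 1.73 in the livers labelled Tshr MKO, and 45.4% ± 7.33 in Tshr f/f BMDMs and 34.4% ± 4.09 in Tshr MKO BMDMs. The muscle form Cox7a1 stayed at or under 1.48% in every library. The ring of c subunits, which turns with the proton flow, is built from a protein encoded by the genes Atp5g1, Atp5g2 and Atp5g3. Atp5g3 supplied 67.7% ± 1.76 of their level in Tshr f/f livers and 69.5% ± 0.658 in the livers labelled Tshr MKO. In BMDMs it supplied 51.4% ± 3.47 in Tshr f/f and 46.3% ± 2.16 in Tshr MKO, with Atp5g2 at 40.0% ± 3.59 and 44.8% ± 1.74. Atp5g1 had the smallest share in both tissues, from 8.38% to 12.6%. In liver this order too rests on the exon lengths (4912 bases for Atp5g1 and 1675 for Atp5g2), and by CPM alone Atp5g1 (75.4, 58.4 and 56.8 CPM in the Tshr f/f livers) was above Atp5g2 (44.1, 37.6 and 37.2 CPM) in every liver. Differences between genotypes in these shares were not tested.

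**Figure D5:**
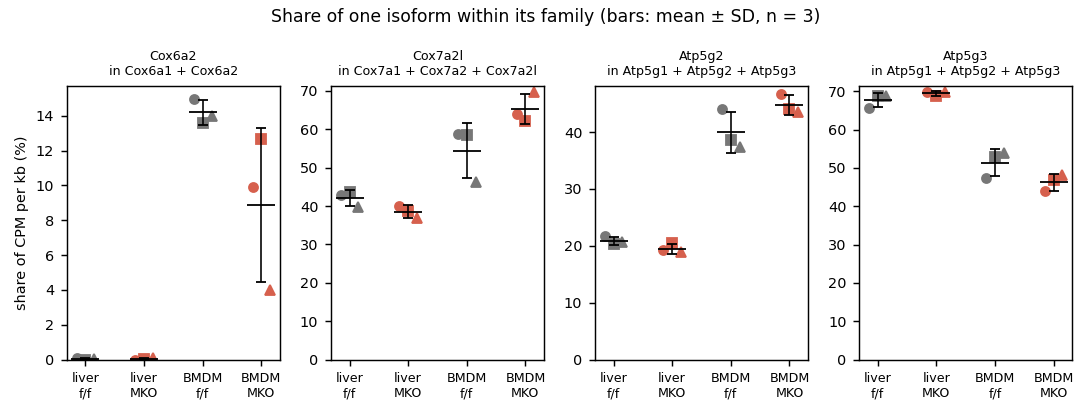
Share of an isoform (percent of CPM per kilobase, vertical axis) within its family in each library, with gray for f/f, red for MKO and bars for mean ± SD (n = 3). Cox6a2 has at most 4 counts per liver library and lies between 4.02% and 14.97% in BMDMs, Cox7a2l and Atp5g2 take larger shares in BMDMs than in liver, and Atp5g3 a smaller one.

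The other paired isoforms were used almost singly. Cox4i1, Cox6b1, Cox7b and Cox8a made up at least 99.4% of their pairs in every library of both tissues. Cox4i2, the hypoxia-responsive form known from lung, had at most 4 counts in a liver library and 0 in BMDMs. By library totals, 0 counts allow up to 0.0733 to 0.0891 CPM per BMDM library. With normalized library sizes the limit was 0.115 CPM in Tshr f/f replicate 3. Cox7b2 and Cox8c, which are testis forms, had 0 counts in all 12 libraries. Cox8b, the form of heart, muscle and brown fat, reached 2 counts in a single liver and 0 in BMDMs. Cox6c2 had at most 5 counts in a library and Cox6b2 at most 17 in a BMDM library. Cox4i2, Cox7b2, Cox8b, Cox8c and Cox6c2 failed the filter in both tissues, Cox6a2 in liver, and Cox6b2 and Cox7a1 (at most 14 counts) in BMDMs.

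Between the control groups, 42 of the 45 tested genes passed an adjusted p of 0.05 (69.3% of all genes): 41 were higher in Tshr f/f liver than in Tshr f/f BMDMs (36.6%) and 1, Cox6a2, was lower (32.7%), with a median log2 difference of 1.34. Uqcr11 (2.52 ± 0.17), Atp5g1 (2.03 ± 0.12) and Atp5g3 (2.02 ± 0.11) were among the largest. Cox7a1 was larger still (2.83 ± 0.81, adjusted p = 0.00964), but had only 10, 6 and 0 counts in the Tshr f/f BMDMs. The call of Cox6a2 (-6.80 ± 0.84) rests on 3, 0 and 2 counts in the Tshr f/f livers. Cycs (0.27 ± 0.18, adjusted p = 0.207) and Cox7a2l (0.23 ± 0.16, adjusted p = 0.223) did not pass, nor did Cox6b2, which is near the floor in BMDMs. Without BMDM Tshr f/f replicate 3 Cycs passed, at 0.52, whereas with library totals Cycs (-0.50, adjusted p = 0.0025) and Cox7a2l (-0.62, adjusted p = 0.0289) passed on the other side. These sizes depended on the scaling between tissues: with library totals the median was 0.54, against -0.79 for all genes, and 25 genes were higher and 3 lower. Tissue and library preparation cannot be told apart here.

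Reads may be shared with near-identical copies. Of the 10 pseudogene rows left out, Atp5pb-ps had 172 to 390 counts per library and Cox5b-ps 19 to 62, and the others at most 23. Copies under other names were not compared, and how many reads a gene shared with its copies was not tested.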

How the data were processed

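The authors deposited raw read counts per gene for 12 libraries. Reads were strand-specific and were trimmed and checked with Skewer and FastQC. The submitters' processing notes name FastQC 0.11.2, STAR, StringTie and mm10 without their roles, and the counting program is not given in the sources used here. Groups followed the sample labels.

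Here counts were fitted for all genes with edgeR 4.0.16 in R 4.3.3 (TMM factors, filterByExpr, robust quasi-likelihood test, Benjamini-Hochberg adjustment over all genes tested), separately in each tissue and, for the difference between tissues, over all 12 libraries. The study used MARS, which has no term for the spread between replicates. CPM used TMM library sizes of a tissue and exon lengths of GENCODE M21 (GRCm38). The SE is the log2 fold change over the square root of F. The methods were tested on simulated counts. Plots used matplotlib 3.10.9 under python 3.11.15, and tables pandas 2.3.3.

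The members, lists and tests were chosen with earlier results of these data known. Named genes were the catalytic and core subunits, the isoform families, in each tissue and complex the 2 members with the largest and the 1 with the smallest absolute log2 fold change, members called in any comparison, members against the direction of their complex, and the 5 with the lowest p for the difference between tissues. Members of the assembly, regulator and marker lists were named after their values were seen. Alternatives were RLE and library-total scaling, other filters on low counts, all libraries in a single fit, the replicate number as a block, the sample ID letter, removal of a length trend, DESeq2 1.42.0, each library left out and, chosen after seeing the data, the liver labels exchanged. Human samples were not used here, and no protein sequence was printed.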

Additional observations from a re-analysis of the deposited data

How the results depend on the processing

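Over the alternatives other than leaving out a library, 220 summary values kept their direction and size, 29 moved and 1 reversed, and of the values of single members 1003 kept their direction and their side of an adjusted p of 0.05, 30 reversed, 4 gained a call and 14 lost one with their direction kept, all 14 in the comparison of control tissues under library totals. Of those that reversed there, Atp5g2 and Atp5l also lost their call, and Cycs and Cox7a2l became calls. In liver, genes called at an adjusted p under 0.05 numbered 1 without a filter on low counts and 220 with DESeq2 (2 of them members), and the complex IV median was 0.26 after removal of the length trend. In BMDMs, library totals left 1 member lower at an unadjusted p under 0.05 and 31 above 0, with medians of 0.088, 0.055, 0.048 and 0.15 for complexes II to V and 0.066 for all. Under that scaling the log2 fold changes that reversed were Atp5d 0.15, Atp5g3 0.061, Atp5h 0.15, Atp5l 0.066, Atp5o 0.11, Atp5pb 0.044, Cox4i1 0.10, Cox5a 0.070, Cox6a1 0.045, Cox6b1 0.050, Cox6c 0.038, Cox8a 0.11, Sdhb 0.015, Sdhc 0.12, Sdhd 0.056, Uqcrc1 0.16, Uqcrc2 0.055 and Uqcrfs1 0.0030. Atp5h and Uqcrc1 also reversed without a filter (0.00025 and 0.00058) and with a mean of at least 50 counts (0.0091 and 0.012, with Atp5d at 0.0085), and Atp5a1 after removal of the length trend (-0.033). In BMDMs all 12 libraries in a fit called 150 genes with 1 member, and DESeq2 called 1100 with 1 member and left 3 members lower at an unadjusted p under 0.05. For the difference between tissues, library totals called 2 genes, left 7 members at an unadjusted p under 0.05 and gave medians of 0.23, 0.38 and 0.18 for complexes III to V and 0.25 for all, and Atp5g2 reversed (-0.10, and -0.0058 without a filter). With the liver labels exchanged, an alternative chosen after seeing the data, 6 members were above 0 and the median was -0.26. In the comparison of control tissues library totals gave 25 members higher and 3 lower, a median of 0.54, and reversed Atp5g2 (-0.16), Atp5l (-0.078), Cox7a2l (-0.62) and Cycs (-0.50). The cause of these shifts was not tested.

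Same-numbered libraries correlated in their deviations at -0.075, 0.25 and -0.033 in liver and 0.15, 0.036 and 0.12 in BMDMs. Differently numbered libraries ran from -0.36 to 0.37 in liver and from -0.21 to 0.16 in BMDMs. With 3 libraries per group these values cannot show whether same-numbered libraries share a litter, culture or run, and the labels do not say. The replicate block left 27 members at an unadjusted p under 0.05 in liver, 2 lower in BMDMs with 1 gene called, and 19 for the difference between tissues with 0 genes called.

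Leaving out each library gave 0 to 7 genes called in liver (7 without Tshr f/f replicate 2), Cox6b2 from -1.03 to 0.11 and Cox7a1 from -0.55 to 0.20 (both above 0 without Tshr f/f replicate 3, Cox7a1 also without the replicate 3 labelled Tshr MKO). In BMDMs it gave 0 to 13 genes called (13 without Tshr f/f replicate 2), 0 to 1 members higher and 2 to 6 lower at an unadjusted p under 0.05 (2 without Tshr f/f replicate 1 or Tshr MKO replicate 1), 7 to 16 above 0 (7 without Tshr f/f replicate 3), a complex III median from -0.14 to -0.064, and Atp5a1 from -0.058 to 0.070, Atp5c1 from -0.028 to 0.14, Atp5d from -0.043 to 0.024, Atp5h from -0.11 to 0.034, Atp5j2 from -0.0064 to 0.18, Atp5o from -0.15 to 0.046, Cox7b from -0.11 to 0.13, Cox8a from -0.13 to 0.015, Uqcr10 from -0.12 to 0.17, Uqcrc1 from -0.074 to 0.074 and Uqcrh from -0.12 to 0.15. For the difference between tissues it gave 0 to 341 genes called, with 0 to 5 members (341 and 5 without BMDM Tshr f/f replicate 2), 0 to 1 members on the other side at an unadjusted p under 0.05 and a complex III median from 0.30 to 0.44, with Atp5g2 from -0.097 to 0.10, Cox6b2 from -5.56 to 0.062, Cox7a2l from -0.10 to 0.14 and Sdha from -0.087 to 0.059. Depth limits what can be said of Cox6b2 and Cox7a1, with at most 26 and 29 counts per liver.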
